A study of Mus musculus with 6 samples.

Results

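The genes described here serve mostly to present peptides to T cells. They are the rows of the mouse major histocompatibility complex (MHC), whose symbols begin with H2-, together with B2m, Tap1, Tap2, Tapbp, Ciita, Nlrc5 and Cd74. This naming rule took 51 of 23420 gene symbols. It used no measured value, but the gene group and its comparison were proposed with results of these data known, so differences between genotypes in these genes are given as descriptions. RNA was sequenced from tooth germs, the embryonic buds that form teeth. All 6 libraries are labelled C57BL/6 and E15.5, with 3 libraries labelled wild type and 3 labelled Smad7-/-, which lack a gene for an inhibitor of TGF-beta and BMP signalling. The labels do not say how the Smad7 allele was made, whether embryos were pooled or if each library is a separate animal, so the errors below measure only the spread between these samples.

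MHC class I molecules sit on nearly all nucleated cells, where a heavy chain, bound to the light chain beta-2-microglobulin, displays peptides that the TAP transporter brings into the endoplasmic reticulum. MHC class II molecules are made mainly by professional antigen-presenting cells, such as dendritic cells, B cells and some macrophages, and display peptides from the endocytic route. The transactivator NLRC5 drives class I genes and CIITA drives class II genes, both through shared promoter boxes, and interferon-gamma raises both sets.

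Depth ran from 37591888 to 56575476 counts per library. Smad7 itself was counted 1097, 934 and 859 times in the wild-type libraries and 80, 62 and 41 times in the Smad7-/- libraries, in keeping with the 6 labels. The epithelial keratin gene Krt14, which tooth germ epithelium expresses, was abundant in every library, at 1221 to 1626 CPM (the counts of a gene over the scaled total of its library). Wild-type library 1 and Smad7-/- library 3 carried the female-specific RNA Xist, at 195 and 365 CPM, and the other 4 libraries had it at no more than 0.202 CPM. Wild-type library 1 lay with Smad7-/- libraries 1 and 2 on one side of the first principal component over all tested genes, and the other 3 libraries on the opposite side. Smad7-/- library 3 and wild-type library 1 therefore each differed from their own group in both respects. Values without a library are given where leaving it out changes a call or a sign or moves a named difference that is not close to 0 by over 1.5 times.

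MHC promoters are known to carry boxes through which the class I and class II pathways act. RefSeq sequences (GRCm38.p6) were matched for 35 of the 51 genes, and the 200 bases before the transcription start are shown for a classical heavy chain, the light chain and 2 class II chains, to show how the boxes differ between the classes. Capitals mark matches on either strand to the kappaB site of class I promoters, to 2 forms of the interferon response element (the class I form and the GAAA repeat form), to 2 forms of the X2 box core (TGATGA and TGACG, which can overlap) and to the Y box core (ATTGG).
H2-K1, chr17:34000348-34000547, reverse strand: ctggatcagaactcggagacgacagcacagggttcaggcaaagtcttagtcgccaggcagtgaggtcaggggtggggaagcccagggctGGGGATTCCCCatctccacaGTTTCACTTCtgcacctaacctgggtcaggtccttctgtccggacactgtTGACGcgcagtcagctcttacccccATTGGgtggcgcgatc
B2m, chr2:122147487-122147686, forward strand: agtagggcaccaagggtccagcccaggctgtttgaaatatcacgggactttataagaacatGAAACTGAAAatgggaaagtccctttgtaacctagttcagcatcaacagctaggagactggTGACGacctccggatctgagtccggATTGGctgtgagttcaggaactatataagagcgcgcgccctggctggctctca
H2-Aa, chr17:34287824-34288023, reverse strand: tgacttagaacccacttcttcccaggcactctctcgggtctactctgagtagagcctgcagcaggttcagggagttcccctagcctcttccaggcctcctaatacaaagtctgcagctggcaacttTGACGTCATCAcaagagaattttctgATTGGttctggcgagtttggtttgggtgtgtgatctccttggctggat
H2-Eb1, chr17:34305667-34305866, forward strand: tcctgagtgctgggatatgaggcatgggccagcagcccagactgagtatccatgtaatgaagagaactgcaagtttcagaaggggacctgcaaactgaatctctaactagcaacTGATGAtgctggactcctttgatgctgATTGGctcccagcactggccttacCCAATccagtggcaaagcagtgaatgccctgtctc
H2-K1 carried the kappaB site and, after it, the class I form of the interferon response element, while B2m carried the repeat form and H2-Aa and H2-Eb1 neither. The H2-Eb1 stretch also overlaps an annotated antisense gene model. In the 250 bases before the start, the kappaB site was found in H2-K1, H2-D1, H2-Q4 and H2-Q6, 4 of 22 class I heavy chain promoters, in 0 of 8 class II chain and loading promoters and in 0.0629% of 27025 promoters of all genes. The class I form of the interferon response element was in 8 of 22 class I and 0 of 8 class II promoters, against 1.47% of all promoters. The repeat form was in B2m, H2-T22 and H2-T23 among the members and in 3.04% of all promoters. The Y box core was common everywhere, in 30 of 35 member promoters and 34.5% of all promoters, and the X2 cores TGATGA and TGACG were in 14 and 15 member promoters, against 10.8% and 17.9%. These matches describe letters in a window and were not tested for function.

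Of the 51 genes, 23 had enough reads for a test alongside the rest of the table, 14 had no read in any library, and the remaining 14 had too few. By edgeR's quasi-likelihood test, 0 of the 23 passed an adjusted p under 0.05 over all 15284 tested genes, where 0.0262% of all genes did (0.0131% higher and 0.0131% lower in Smad7-/-), and their adjusted p ran from 0.577 to 1.00. Unadjusted p-values lay under 0.05 for 5 of the 23, against 5.14% of all tested genes, and DESeq2 called 1 member, H2-K2, against 0.351% of the genes it tested. All 3 libraries of one genotype lay beyond all 3 of the other for 6 of the 23, against 8.88% of all tested genes. Of these, 4 were higher in Smad7-/- and 2 lower, against 4.97% and 3.91% of all tested genes. Because the members were chosen with this contrast in view, nothing is read from these shares. The 23 tested genes stood at a median log2 difference of 0.15 (14 higher, 9 lower in Smad7-/-), beside -0.0028 over all genes. Of the 9 tested class I heavy chains 7 had a fitted difference above 0, and all 3 tested class II chains had one below 0.

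**Figure D1:**
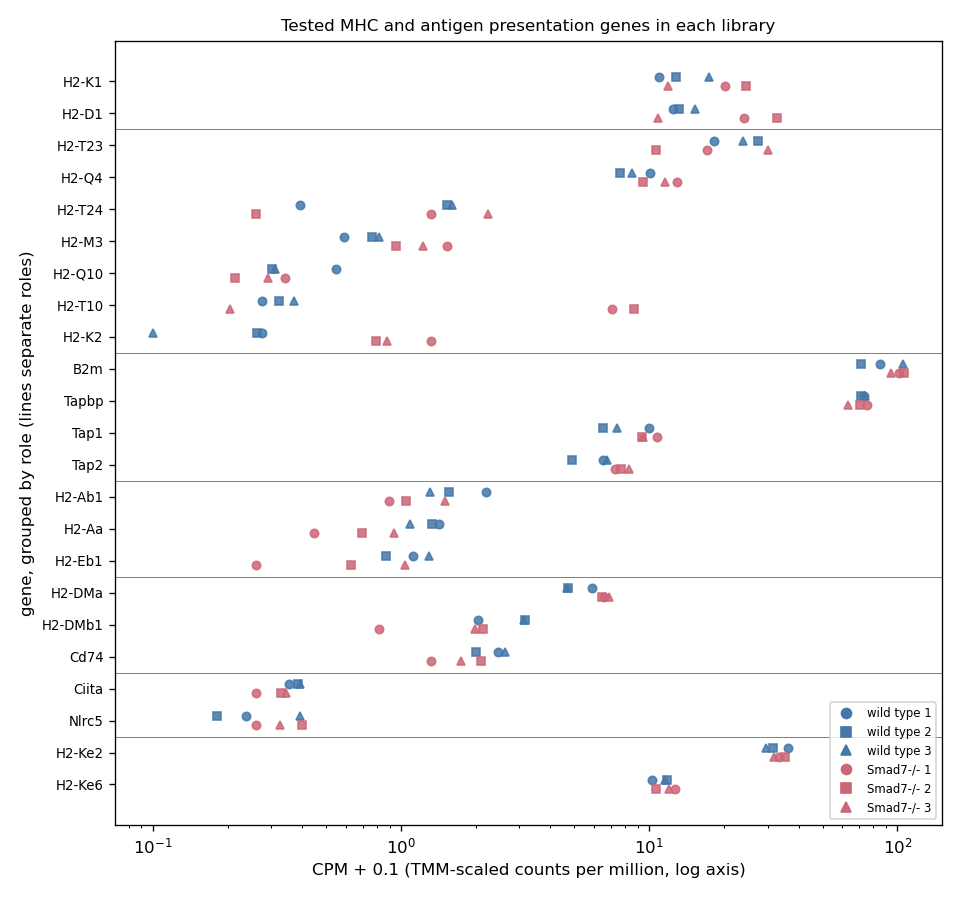
Levels of the 23 tested MHC and antigen presentation genes in each of the 6 libraries, as CPM plus 0.1 on a log axis, with genes grouped by role. Wild-type libraries are blue, Smad7-/- libraries red, and the marker shape gives the library number; H2-T10 lies near 7 and 9 CPM in Smad7-/- libraries 1 and 2 and below 0.3 CPM in the other 4.

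The classical class I heavy chains H2-K1 and H2-D1, which carry peptides to cytotoxic T cells, were high in Smad7-/- libraries 1 and 2 but not in library 3. H2-K1 (chromosome 17, 33996017 to 34000347, mm10, reverse strand) stood at 10.8, 12.7 and 17.3 CPM in the wild-type libraries and at 20.1, 24.5 and 11.8 CPM in the Smad7-/- libraries. H2-D1 (35262730 to 35267499, forward strand) stood at 12.4, 13.1 and 15.2 CPM in wild type and at 24.04, 32.8 and 10.7 CPM in Smad7-/-. For both genes Smad7-/- libraries 1 and 2 lay above every wild-type library, while Smad7-/- library 3 lay within the wild-type range for H2-K1 and below it for H2-D1. The fitted log2 differences were 0.47 ± 0.27 (SE, n = 3 per group) for H2-K1 and 0.73 ± 0.35 for H2-D1, neither beyond the spread between libraries by edgeR. Both rested on single libraries. The difference of H2-D1 was 1.07 without Smad7-/- library 3 (edgeR adjusted p = 0.114) and 0.35 without library 2, and that of H2-K1 was 0.72 and 0.23. Both promoters hold a kappaB match and the class I interferon element, as printed for H2-K1. The promoter of H2-Q4 holds both as well, and H2-Q4 stood at 12.9, 9.36 and 11.5 CPM in the Smad7-/- libraries, another order. A link between such matches and the levels was not tested, here or for the genes below. H2-L, a classical gene absent from some strains, had 4 reads in all 6 libraries together.

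The partners that load class I molecules differed less between libraries, with a highest library at most 1.69 times the lowest (CPM plus 0.1) for each of the 4. B2m, the class I light chain, was the most abundant member at 85.2, 71.6 and 105 CPM in wild type and 101.2, 107 and 93.8 CPM in Smad7-/-. Its groups overlapped, with a log2 difference of 0.20 ± 0.13, which became 0.08 when wild-type library 2 was left out and 0.36 when library 3 of that group was. Per kilobase of exon, B2m stood at 102 CPM in wild type, above Tapbp at 20.1, H2-T23 at 7.99, H2-D1 at 5.26 and H2-K1 at 4.63. Tapbp, which encodes tapasin, the bridge between TAP and the empty heavy chain, ranged only from 63.3 to 75.1 CPM over the 6 libraries (log2 -0.06 ± 0.09), and without Smad7-/- library 3 its difference was 0.00. The peptide transporter genes Tap1 and Tap2 were at 6.41 to 9.85 and 4.79 to 6.66 CPM in wild type. In Smad7-/- they were at 9.25 to 10.7 and 7.19 to 8.16 CPM, so the groups of Tap2 did not overlap (log2 0.36 ± 0.18) and those of Tap1 did (0.31 ± 0.18). Without wild-type library 2 the difference of Tap2 was 0.23 and that of Tap1 0.18, and leaving out the first wild-type library gave 0.50 for Tap1. Within the Smad7-/- group, B2m had the order of H2-D1, highest in library 2 and lowest in library 3, but library 3 lay inside the wild-type range. Smad7-/- library 3 was the highest of all 6 libraries for Tap2 and the lowest for Tapbp.

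Among the non-classical class I genes, which resemble the classical chains but show little variation or narrow expression, H2-T10 differed most between libraries. H2-T10 belongs to a pair with H2-T22 whose products are bound by gamma-delta T cells, and the annotation calls it a polymorphic pseudogene (chromosome 17, 36115876 to 36121465, reverse strand). Its counts were 9, 11 and 13 in wild type and 262, 374 and 6 in Smad7-/-, that is 0.176, 0.222 and 0.272 CPM against 6.97, 8.60 and 0.104 CPM. Smad7-/- libraries 1 and 2 thus stood above all others, while Smad7-/- library 3 was the lowest of the 6. The fit over all libraries gave a log2 difference of 4.53 ± 1.40 (edgeR adjusted p = 0.827), since the group itself was divided. Without Smad7-/- library 3 the difference was 5.11 and H2-T10 passed (edgeR adjusted p = 3.67e-04), the only member among 7 genes then called of 15465 tested (0.0453%). Its adjusted p lay between 3.67e-04 and 1.00 across the alternatives. With library sex as a covariate its difference was 3.88, and with the side of the first principal component as a covariate it was 2.73.

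H2-T22, its near copy, had 0, 0 and 1 reads in wild type and 1, 1 and 5 in Smad7-/-. The 2 genes are hard to separate by short reads. Of the distinct 50-base stretches in the H2-T10 transcripts, 67.1% were found in no other annotated gene and 31.7% also occurred in H2-T22. H2-T10 and H2-T22 counts are therefore uncertain, and how reads that fit several genes were counted is not given in the sources used here.

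H2-T23, which encodes Qa-1, the ligand of inhibitory receptors on natural killer cells, followed another order. Per kilobase it was the highest heavy chain in wild type (7.99), though in Smad7-/- H2-D1 was higher (8.73 against 6.66). It stood at 18.2, 27.2 and 23.8 CPM in wild type and 17.01, 10.6 and 30.1 CPM in Smad7-/-. Here Smad7-/- library 3 was the highest of all and Smad7-/- library 2 the lowest, the reverse of their places for H2-D1. Its log2 difference was -0.26 ± 0.35, and it turned to 0.04 without Smad7-/- library 2, and was -0.74 without library 3 and -0.12 without wild-type library 2. Leaving out wild-type library 1 gave -0.40. H2-T24, which lies beside H2-T23 on the chromosome, was at 0.293, 1.44 and 1.51 CPM in wild type and 1.22, 0.161 and 2.15 CPM in Smad7-/-. Wild-type library 1 and Smad7-/- library 2 were low and the other 4 libraries higher, in both genotypes, and the fitted difference was 0.15 ± 0.83. Leaving out Smad7-/- library 3 gave -0.66, leaving out the first wild-type library gave -0.30 and limma-voom gave -0.08, so no direction can be given. The promoter of H2-T23 holds the repeat form of the interferon element and no kappaB match.

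**Figure D2:**
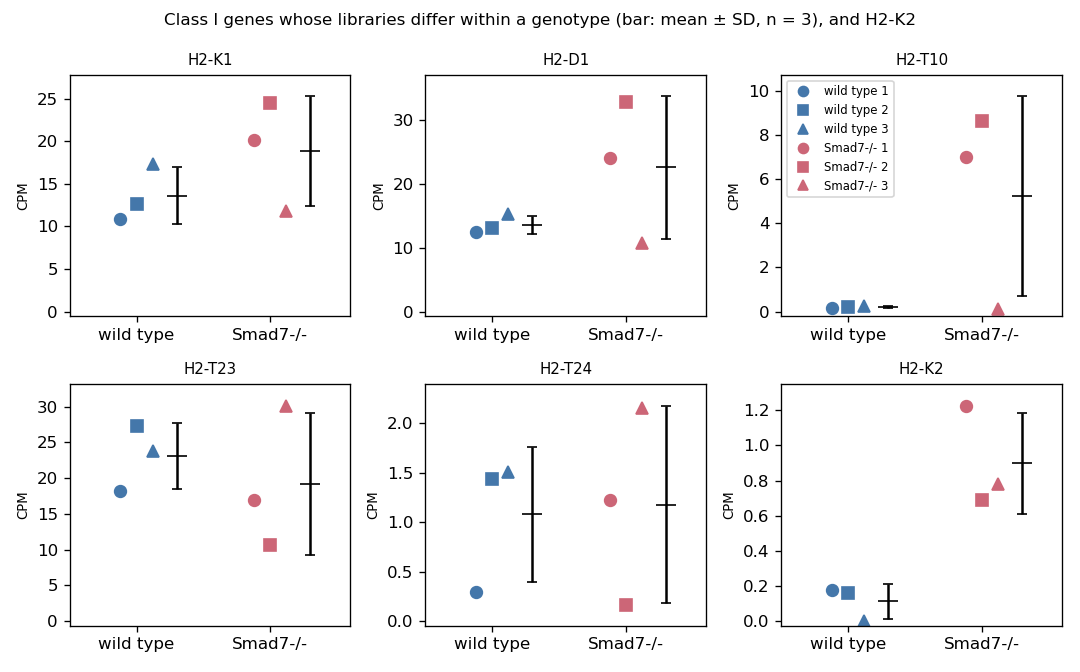
CPM of 6 class I genes in each library (y axis from about 0), wild type on the left and Smad7-/- on the right, with the mean ± SD of 3 libraries beside each group. H2-K1, H2-D1 and H2-T10 are high in Smad7-/- libraries 1 and 2 and low in library 3, H2-T23 and H2-T24 are highest in Smad7-/- library 3, and H2-K2 is higher in all 3 Smad7-/- libraries.

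H2-K2 separated the genotypes in every library. It is annotated as a transcribed pseudogene beside H2-K1 (33974659 to 33978827, reverse strand). Its counts were 9, 8 and 0 in wild type and 46, 30 and 45 in Smad7-/-, or 0.176, 0.162 and 0 CPM against 1.22, 0.690 and 0.781 CPM. The log2 difference was 2.95 ± 0.68 (edgeR adjusted p = 0.577), and DESeq2, which gave 2.98 ± 0.72, called it (adjusted p = 0.0154). Across the alternatives the adjusted p lay between 0.0154 and 1.00 and the difference between 2.39 and 3.62. The level was low, and 90.6% of its 50-base stretches were its own, compared with 90.4% for H2-K1 and 87.2% for H2-D1.

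The other non-classical genes were lower or steadier. H2-Q4 stood at 7.56 to 10.01 CPM in wild type and 9.36 to 12.9 CPM in Smad7-/-, with overlapping groups (log2 0.37 ± 0.17). H2-M3, which presents bacterial formylated peptides, was at 0.488, 0.667 and 0.712 CPM in wild type and 1.44, 0.851 and 1.13 CPM in Smad7-/-, with no overlap (0.87 ± 0.34). H2-Q10, known as a secreted liver form, was at no more than 0.449 CPM, with a fitted difference of -0.66 ± 0.53. H2-Q1 and H2-Q2 were below the filter: H2-Q1 had 3, 2 and 3 reads in wild type and 21, 24 and 8 in Smad7-/-, and H2-Q2 had 8, 1 and 6 against 31, 1 and 29. H2-Q1 was thus higher in each Smad7-/- library (DESeq2 log2 2.93 ± 0.93, adjusted p = 0.184), while Smad7-/- library 2 had only 1 read of H2-Q2. Of the 29 non-classical genes, 13 had no read in any library, among them H2-Q6, H2-Q7, H2-Q8, H2-Q9 and H2-T9, and 17 had at most 10 reads in all 6 together. A count of 0 allowed a level of up to 0.0521 to 0.0799 CPM (3 counts per library, counting error only). For H2-Q6 and H2-Q7, 68.0% and 73.6% of 50-base stretches were their own, beside 67.1% for H2-T10, which had 374 reads in Smad7-/- library 2. The annotation used for counting and the handling of shared reads are not given, so a count of 0 does not show that these genes were silent.

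Summed over the 32 class I heavy chains, the level was 53.3, 63.6 and 67.8 CPM in wild type and 86.7, 88.5 and 69.3 CPM in Smad7-/-. All 3 Smad7-/- libraries lay above the wild-type libraries, library 3 by the smallest margin. The ratio of the means was 1.32 (log2 0.40), which no test accompanies since the sum was chosen. The sum hides opposite orders: without H2-T23 the log2 ratio was 0.69. In a bulk sample, fewer cells of a type and less RNA per cell cannot be told apart, here and in all results below.

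Class II chains, which mark antigen-presenting cells, were lower in level and their fitted differences lay below 0. H2-Ab1, the beta chain of the I-A molecule, stood at 2.11, 1.46 and 1.21 CPM in wild type and 0.799, 0.943 and 1.41 CPM in Smad7-/-. Its partner H2-Aa (34282744 to 34287823, reverse strand) was at 1.33, 1.23 and 0.984 CPM against 0.346, 0.598 and 0.833 CPM. H2-Eb1, the beta chain of the I-E molecule, was at 1.01, 0.768 and 1.19 CPM against 0.160, 0.529 and 0.937 CPM. For each chain Smad7-/- library 1 was the lowest of the 6 and Smad7-/- library 3 the highest of its group, and only for H2-Aa did the groups not overlap. The log2 differences were -0.59 ± 0.34 for H2-Ab1, -0.97 ± 0.37 for H2-Aa and -0.83 ± 0.51 for H2-Eb1, none past the threshold. That of H2-Ab1 was -0.34 without wild-type library 1, and that of H2-Eb1 was -0.42 without Smad7-/- library 1 and -1.50 without library 3. Behind these values stood between 6 and 108 reads per gene and library. H2-Ea-ps, the alpha chain gene of I-E, is annotated as a polymorphic pseudogene and had no read in any library. H2-Eb2 had 2 reads in all, both in wild-type library 2.

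Summed over the 5 class II chains, the level was 4.45, 3.498 and 3.39 CPM in wild type and 1.30, 2.07 and 3.18 CPM in Smad7-/-, with no overlap and a ratio of means of 0.578 (log2 -0.79). Leaving out single libraries moved this log2 ratio between -1.16, without Smad7-/- library 3, and -0.53, without Smad7-/- library 1. Class I heavy chains exceeded class II chains by 11.98, 18.2 and 19.98 times in wild type and by 66.5, 42.8 and 21.8 times in Smad7-/-. Smad7-/- library 3 lay just above the highest wild-type library in this ratio, and libraries 1 and 2 well above it.

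**Figure D3:**
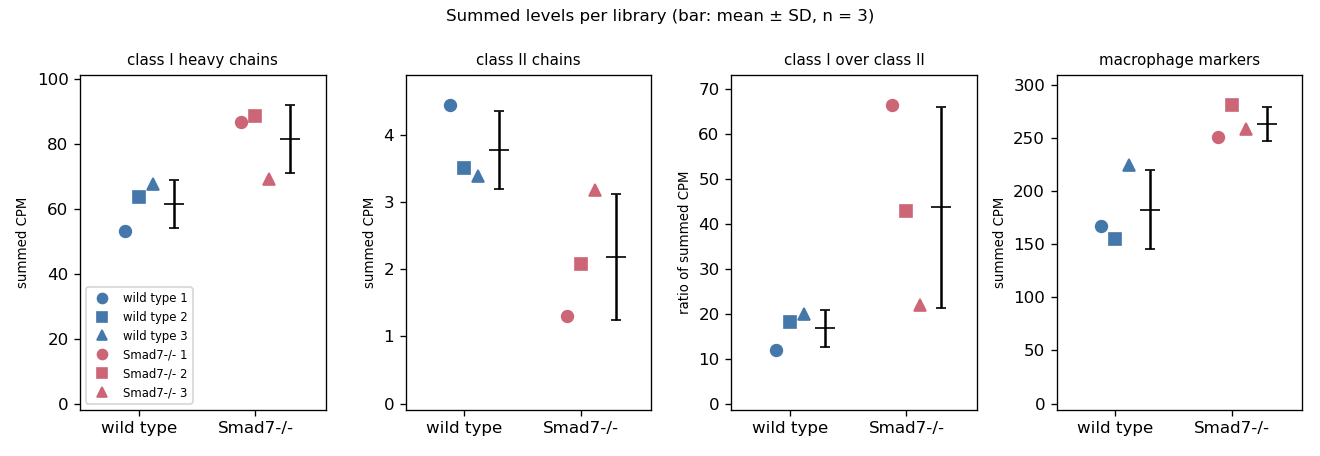
Summed CPM per library for class I heavy chains, class II chains and macrophage markers, and the ratio of class I to class II sums, with the mean ± SD of 3 libraries beside each group. Class II sums run from 3.39 to 4.45 CPM in wild type and from 1.30 to 3.18 CPM in Smad7-/-, while macrophage markers run from 155 to 225 and from 250 to 281 CPM.

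The genes that load class II molecules had differences of both signs. Cd74, the invariant chain that guards the class II groove, was at 2.36, 1.90 and 2.53 CPM in wild type and 1.22, 2.001 and 1.65 CPM in Smad7-/-, overlapping (log2 -0.48 ± 0.27). H2-DMa, the alpha chain of the peptide-exchange factor DM, was at 5.79, 4.61 and 4.57 CPM against 6.49, 6.35 and 6.79 CPM, higher in each Smad7-/- library (0.39 ± 0.17). H2-DMb1, a beta chain of DM, lay the other way at 1.95, 3.05 and 3.04 CPM against 0.719, 2.05 and 1.89 CPM (-0.77 ± 0.38). Without Smad7-/- library 1 the differences of Cd74 and H2-DMb1 were -0.31 and -0.44. The neighbouring beta chain gene H2-DMb2 had 1, 2 and 6 reads in wild type and 16, 15 and 10 in Smad7-/-. So H2-DMb1 was lowest, and H2-DMb2 highest in reads, in Smad7-/- library 1. Of their 50-base stretches, 22.7% of H2-DMb1 and 21.2% of H2-DMb2 occur in the other gene, which leaves the split between them uncertain. H2-Oa and H2-Ob, chains of the DM inhibitor DO, had 2 to 6 and 2 to 4 reads per library. The summed loading genes differed little, at 9.75 to 10.4 CPM in wild type and 8.97 to 10.9 CPM in Smad7-/-.

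The regulators were near the limit of detection. Ciita, on chromosome 16, was counted 13, 14 and 14 times in wild type and 6, 10 and 14 times in Smad7-/-, at 0.254 to 0.293 and 0.160 to 0.243 CPM, so the groups just failed to overlap (log2 -0.37 ± 0.44). Nlrc5, on chromosome 8, was counted 7, 4 and 14 times against 6, 13 and 13 times, with overlapping groups (0.43 ± 0.58). Single libraries left out moved that of Nlrc5 between 0.10 (wild-type library 2) and 1.06 (wild-type library 3), and that of Ciita to -0.22 (Smad7-/- library 1). The order of neither gene over the Smad7-/- libraries was that of H2-T10. H2-Ke2, better known as the prefoldin subunit gene Pfdn6, and H2-Ke6, a steroid dehydrogenase gene also called Hsd17b8, carry MHC symbols only for their place. They stood at 29.5 to 36.1 and 10.2 to 12.6 CPM over the 6 libraries, with differences of 0.05 ± 0.11, which was -0.02 without wild-type library 3, and 0.07 ± 0.14. Of the H2-Ke6 stretches, 70.5% also occur in the overlapping gene model Gm20427.

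Of the members, 43 lie on chromosome 17, so their place could be compared with that of their neighbours. Between H2-Ke2 and H2-M2, from 33938821 to 37483552 (3.54 Mb), the table held 150 other genes, of which 97 were tested. Among the other genes edgeR called 0 and had 11 at an unadjusted p under 0.05 (11.3%, against 5.14% of all tested genes), and DESeq2 called 1, Lta. Lta, which encodes the cytokine lymphotoxin alpha, was at 0.195, 0.243 and 0.126 CPM in wild type and 2.16, 0.736 and 0.660 CPM in Smad7-/- (DESeq2 adjusted p = 0.0105; edgeR log2 2.62, adjusted p = 0.521). The groups did not overlap for 10 of the 97 (10.3%), close to the 8.88% of all tested genes, and their median log2 difference was -0.03.

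The spread over all 6 libraries, which takes in any difference between genotypes, was also compared. The highest library was at least 4 times the lowest (CPM plus 0.1) for H2-T10, H2-K2, H2-T24 and H2-Eb1 among the 23 tested members, for 5 of the 97 other genes and for 1.94% of all tested genes. Among the members the genotypes did not overlap for H2-K2, while for H2-T10, H2-T24 and H2-Eb1 they did. Among the other genes they did not overlap for Lta and C920025E04Rik, and did for C4a, Gm8801 and Trim10. C920025E04Rik was at 0.429, 0.789 and 0.251 CPM in wild type and 1.54, 1.15 and 1.09 CPM in Smad7-/- (edgeR log2 1.35, adjusted p = 0.766). Low counts widen such ranges, so genes averaging 1 CPM or more were also taken alone, which left 2 of 16 members, 1 of 80 other genes and 0.897% of all genes. The median range among them was 1.84-fold for the 16 members and 2.25-fold for the 13 members in the region. It was 1.36-fold for the other genes of the region and 1.33-fold for all genes. Among lists described below, it was 2.19-fold for 17 interferon-stimulated genes and 2.11-fold for 14 macrophage markers. It was 1.36-fold for 38 antigen processing and interferon signalling genes and 1.58-fold for 7 endothelial markers. Of these other genes, C920025E04Rik, C4a, Gm8801 and Trim10 were named after their values were seen. Gm8801 was at 2.20, 1.62 and 1.49 CPM in wild type and 2.16, 3.93 and 0.0521 CPM in Smad7-/-, so that, as for H2-D1 and H2-T10, Smad7-/- library 2 was the highest of the 6 and library 3 the lowest. Trim10, a gene of the TRIM family, was at 0.0230 CPM in Smad7-/- library 2 and at 0.426 to 1.15 CPM elsewhere.

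**Figure D4:**
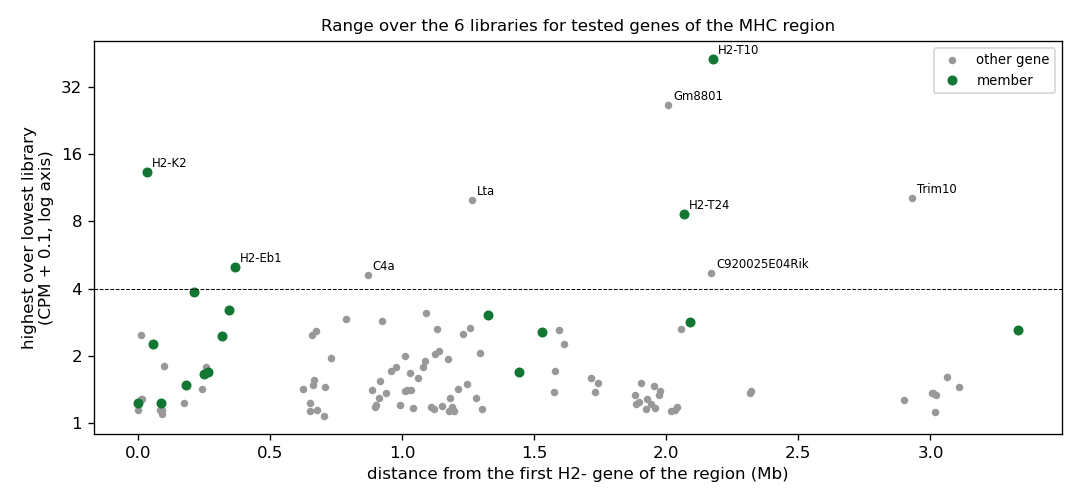
Highest over lowest library (CPM plus 0.1, log axis) for tested genes between H2-Ke2 and H2-M2, by distance in Mb from the first of them, with members in green and other genes in grey. The dashed line marks 4-fold; H2-T10 reaches 42.6-fold and 77 of the 97 other genes stay below 2-fold.

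Other genes of antigen processing and interferon signalling differed little between the groups by the fit. Of 41 tested genes for proteasome, peptide-trimming, chaperone, receptor and transcription factor proteins, 0 passed in edgeR or DESeq2 and 1 had an unadjusted p under 0.05, with 25 higher, 16 lower and a median log2 difference of 0.06. The groups did not overlap for 5 of the 41, against 8.88% of all tested genes. The most abundant were the chaperones of the loading complex Pdia3, Calr and Canx. Pdia3 was at 1714 to 1767 CPM in wild type and 1481 to 1653 in Smad7-/-, and its log2 difference was -0.13 ± 0.10. Calr and Canx stood at -0.16 ± 0.10 and -0.16 ± 0.08. The immunoproteasome genes Psmb8 and Psmb9, which lie among the TAP genes, were at 0.12 ± 0.28 and -0.19 ± 0.33. The interferon-gamma receptor gene Ifngr1 was the gene with the low unadjusted p, at 36.6 to 45.7 CPM against 45.5 to 51.8 CPM (0.28 ± 0.11). Irf1, a transcription factor that acts on MHC promoters, was at 0.15 ± 0.14.

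Of 22 tested interferon-stimulated genes 0 passed in either tool, with 8 higher, 14 lower and a median of -0.10, and 2 had an unadjusted p under 0.05. These were the antiviral genes Rsad2, at -1.12 ± 0.36, and Usp18, at -1.10 ± 0.47. The most abundant were Irgm1, Ifi35 and Ifit2, at 0.04 ± 0.21, 0.09 ± 0.18 and 0.34 ± 0.19. The groups did not overlap for 3 of the 22, Rsad2, Usp18 and Xaf1, against 8.88% of all tested genes. Xaf1, named after its values were seen, was at 3.804, 0.910 and 5.26 CPM in wild type. In Smad7-/- it was at 6.60, 6.44 and 6.28 CPM (log2 0.95 ± 0.50), so wild-type library 2 was the lowest by far.

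Markers of macrophages, some of which carry class II molecules, mostly had fitted differences opposite in sign to those of the class II chains. This was not particular to macrophages. The tested markers of dendritic cells (5), B cells (2), T and NK cells (1) and endothelium (7) were also all higher in Smad7-/- by the fit. None of these passed the threshold in edgeR or DESeq2, and the 3 tested red blood cell markers were lower. Of 15 macrophage markers 14 were higher in Smad7-/- by the fit and 1 lower, beside 7498 higher and 7786 lower among all tested genes. EdgeR called 0 of them and DESeq2 called 3, Csf1r (adjusted p = 0.00341), Cd68 (0.0300) and Laptm5 (0.0395). Unadjusted p-values lay under 0.05 for 9 of the 15, against 5.14% of all tested genes, and the groups did not overlap for 8, against 8.88%. No macrophage marker was at 0 in all libraries, with a summed level of 155 to 225 CPM in wild type and 250 to 281 CPM in Smad7-/-. Csf1r, the macrophage growth factor receptor, was at 33.3, 36.2 and 48.2 CPM against 57.4, 66.1 and 70.2 CPM. Dendritic cell markers summed to 4.86 to 7.10 CPM against 6.42 to 7.75 CPM, with Cd209a at 0 in all libraries and only 5 of 9 tested. B cell markers summed to 1.54 to 2.16 CPM against 1.52 to 2.59 CPM, with Ms4a1 and Pax5 at 0 in several libraries. T and NK cell markers summed to at most 1.19 CPM, with Ncr1 at 0 throughout. Red blood cell markers summed to 50.7, 35.4 and 38.8 CPM in wild type and 17.4, 16.8 and 28.7 CPM in Smad7-/-. Slc4a1 and Alas2 were lower in each Smad7-/- library (log2 -1.59 ± 0.73 and -0.62 ± 0.20), neither past the threshold in edgeR or DESeq2. The adult globin genes Hba-a1, Hba-a2, Hbb-b1 and Hbb-b2 were listed at 0, although Slc4a1 and Alas2 had reads in every library. These zeros do not show that globin RNA was absent, and the red blood cell sums hold no reads of these globin genes. As for the class II chains, Smad7-/- library 3 had the highest red blood cell sum of its group. The tooth mesenchyme genes Barx1, Lhx6, Pax9 and Msx1 were higher in each Smad7-/- library, at 0.36 ± 0.10, 0.53 ± 0.16, 0.55 ± 0.18 and 0.27 ± 0.13, none past the threshold in either tool. The part of these cells in the class I and class II levels was not tested. Endothelial markers, from a cell type that expresses class I strongly, summed to 251 to 378 CPM against 351 to 389 CPM, and their part was not tested either.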

How the data were processed

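Per the labels' protocols, an RNeasy kit gave total RNA, of which 1 ug was used for each TruSeq library. The submitters' processing notes name HISAT2, featureCounts, DESeq2 and mm10, with no versions. The deposited files hold raw counts per gene symbol, 1 library each, per the file headers and values. The annotation, strand setting and handling of reads that fit several genes are not given in the sources used here. Of the 23420 symbols 27 read as dates, together no more than 0.223% of any library.

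All 6 libraries, 3 per group, were fitted without covariate by the quasi-likelihood test of edgeR 4.0.16 (R 4.3.3), with filterByExpr (minimum count 10, minimum total 15) and TMM scaling, adjusted by Benjamini-Hochberg over 15284 genes at a threshold of 0.05. CPM use TMM library sizes, and errors are SD for CPM and SE for log2 differences. The method was tested on simulated data. Positions and exon lengths came from GENCODE M21 (mm10), where 47 of the 51 members were found by symbol or synonym. Shared 50-base stretches were counted over its transcripts on the sense strand. The members and gene lists were chosen with earlier results of these data known. Members named were those with a mean of at least 5 CPM, those called, those with a 4-fold range between libraries, and all class II chains, class II loading genes and regulators; of the pathway lists, the 3 most abundant genes where none passed; and of other region genes those called. Others were named after their values were seen. Alternatives were DESeq2 1.42.0, limma-voom 3.58.1, other scalings and filters, a replicate block, sex or the first principal component as a covariate, and leaving out each library. The labels name no molecular identifiers, so limits from counts cover counting error only.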

Additional observations from a re-analysis of the deposited data

How the results depend on the processing

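No member passed in edgeR with the original settings, with other size factors, with library totals, with no filter, with a mean of at least 5 CPM, with a fit that is not robust, by limma-voom or with either covariate. The count of members higher in Smad7-/- became 1 by DESeq2 (H2-K2) and 1 without Smad7-/- replicate 3 (H2-T10), and was 0 without each of the other 5 libraries, so it ran from 0 to 1 over single libraries left out. The count lower was 0 in each of these settings. DESeq2 also called 1 other gene of the MHC region, Lta. The summed class I log2 ratio of 0.40 became 0.69 without its most abundant member, H2-T23, 0.31 without H2-T10 (chosen after seeing the data) and 0.31 to 0.51 without 1 library. The summed class II log2 ratio of -0.79 ran from -1.16 to -0.53 without 1 library. With the replicate number as a block, 0 members passed and the smallest adjusted p among named members was 0.240. Libraries of the same number had residual correlations of 0.156, -0.0276 and 0.0802, and 3 of 6 libraries correlated best with their own number. With 3 libraries per group, these values cannot decide whether libraries of the same number shared more than the number. The self-chosen sums have no test. The class II chains had at most 108 reads per gene and library, and members such as H2-Oa, H2-Ob and H2-DMb2 far fewer, which limits what can be said of them.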
